A study of Sus scrofa with 40 samples.

Results

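Cytokines, chemokines and the receptors that sense them or sense microbes were measured in liver and backfat of pigs by 114 probe sets for 88 genes. A probe set is a group of short probes on the array that together report 1 transcript. The members are the probe sets whose platform annotation gives exactly 1 gene symbol and whose symbol begins as an interleukin or its receptor, a CC or CXC chemokine or its receptor, a Toll-like receptor, or a member of the TNF, interferon or TGF-beta families. They were 114 of the 23999 probe sets left after controls and of the 10069 with a single symbol. A symbol can begin as a family does without naming a cytokine: TNFAIP1, TNFAIP6, TNFAIP8 and TNFAIP8L2 are proteins named after TNF, and IL18BP is a binding protein that neutralises IL-18. Of the 88 genes, 69 had 1 probe set and 19 had several.

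Cytokines are secreted signals that immune cells, fat cells and stromal cells use to recruit and instruct each other. Chemokines are the subset that guides migrating cells through G protein-coupled receptors, interleukins and interferons signal largely through JAK and STAT proteins, and Toll-like receptors sense microbial products and start NF-kB signalling. TGF-beta acts through paired serine/threonine kinase receptors and restrains inflammation while promoting matrix deposition. In liver, Kupffer cells and sinusoidal cells are well-known sources and targets of these signals, and in fat they come from resident macrophages, the vessel wall and adipocytes.

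The pigs were Yorkshire gilts aged 6 months from lines selected for residual feed intake (RFI), the feed an animal eats beyond what its growth and maintenance predict. Gilts of each line, 10 low RFI and 10 high RFI, either ate ad libitum or received 80% of their maintenance feed for 8 days, and liver and the middle layer of backfat were taken. This gave 8 groups of 5 arrays, which are low RFI ad libitum, low RFI restricted, high RFI ad libitum and high RFI restricted in each tissue. Per the labels of 39 arrays the pigs were chosen as heterozygotes for a variant of MC4R, the melanocortin receptor that controls appetite, which 11 of them name as D298N, so the groups share that genotype. The label of 1 liver array does not state which genotype was taken. The labels do not say which liver and backfat arrays came from the same pig, so the tissues were compared as separate samples, nor whether a replicate number shared by groups marks a shared day or litter.

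Array brightness had been scaled by the depositors to a common trimmed mean, between 500.09 and 500.15 on every array. The labelled tissues showed their own markers: the summed signal of hepatocyte markers was 18.04 to 18.73 on a log2 scale in liver, and that of adipocyte markers was 15.81 to 16.29 in backfat. Markers of other tissues appeared in backfat. The summed skeletal muscle signal (10 of 13 marker genes on the array) ran from 8.56 to 16.62 among backfat arrays. Summed hepatocyte signal in backfat was 11.66 to 12.36 in ad libitum and 12.3 to 16.47 in restricted arrays, and the highest value was that of low RFI restricted array 5. The sum adds linear signals, so its brightest gene weighs heavily in it. In backfat that gene was APOA1, with a mean log2 intensity of 12.38, against 7.91 for the next, ALB. These are means over all backfat arrays and do not tell which genes made the sum of 16.47. Arrays numbered 1 and 2 differed from those numbered 3 to 5 in the 3′ to 5′ actin ratio, an index of RNA integrity and labelling. The log2 ratio was 2.25 ± 0.28 (SD, n = 8) against 1.32 ± 0.194 (SD, n = 12) in liver, and 2.27 ± 0.553 against 1.56 ± 0.163 in backfat.

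Most of the family lay in the lower range of the arrays, so level comes first. A member passed the level filter in a tissue when 5 or more of the 20 arrays showed it brighter than their own 40th percentile. In liver 69 of the 114 members (60.5%) met this, against 65.3% of all probe sets, and in backfat 67 (58.8%), against 64.6%. Of these, 56 passed in both tissues, 13 in liver alone and 11 in backfat alone. The other 34 probe sets, for 25 genes, passed in neither. The median of the members' mean percentiles was 44.2 in liver and 41.7 in backfat, compared with 49.4 and 49.7 over all probe sets. Only 4 members in liver (3.51%) and 2 in backfat (1.75%) averaged above the 90th percentile, against 9.61% and 9.46% of all probe sets. As a floor, the 23 tag probe sets with no porcine target had mean percentiles between 1.76 and 20.2. In liver 53 members (46.5%) exceeded every one of them on all 20 arrays, against 52.8% of all probe sets. In backfat 61 members (53.5%) did, against 59.4%. A percentile orders brightness, which also depends on the probes, and does not order transcript amounts between genes.

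**Figure D1:**
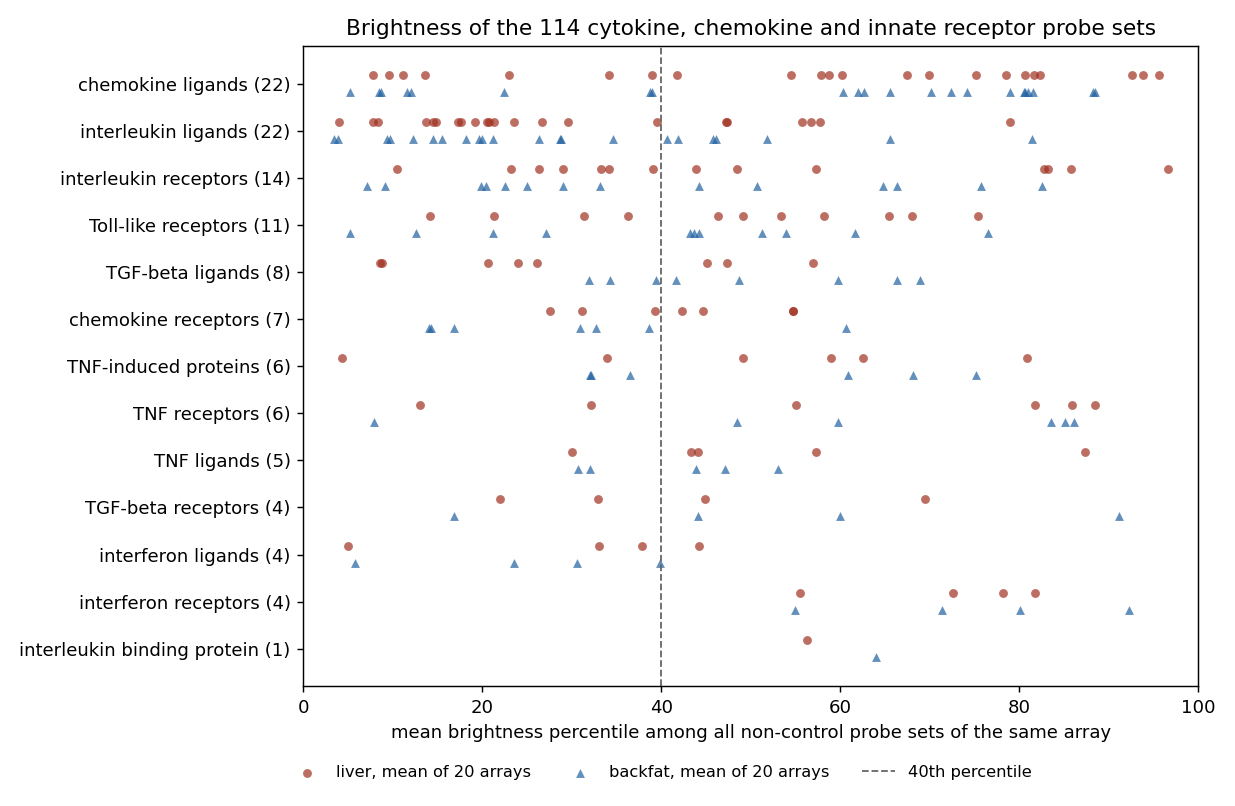
Mean brightness percentile of each of the 114 member probe sets among all non-control probe sets of the same array, by role (number of probe sets in brackets), for liver (circles) and backfat (triangles); each point is a mean of 20 arrays and the dashed line is the 40th percentile used as the filter. Interferon receptors lie wholly to the right of the line in both tissues, whereas most interleukin ligands lie to its left, with medians of 21.1 in liver and 23.7 in backfat.

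Chemokine ligands were the brightest of the ligand groups, with a median percentile of 59.5 in liver and 64.1 in backfat, and 16 of their 22 probe sets passed in each tissue. CXCL12, the ligand of CXCR4 that retains leucocytes and progenitors in tissue, had a mean log2 intensity of 11.84 ± 0.428 (SD, n = 20) in liver and 10.43 ± 0.39 in backfat, at percentiles 95.6 and 88.5. CXCL16, a membrane-bound scavenger receptor that also acts as the ligand of CXCR6, stood at 11.31 ± 0.267 in liver and 8.31 ± 0.254 in backfat. Both were bright on every liver array, with lowest values of 11.09 and 10.71. CXCL8, the main neutrophil attractant, was among the dimmest: its log2 intensity averaged 2.96 ± 1.72 in liver and 3.64 ± 1.36 in backfat, and it passed the 40th percentile on no array of either tissue. CCL25 and CCL27 were likewise above it on no array. Of the 7 chemokine receptors, 5 passed in liver and 3 in backfat, and none reached a mean percentile above 60.6, that of CXCR4 in backfat.

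Interleukin ligands were mostly dim. Of 18 genes, 7 had a probe set past the filter in liver and 6 in backfat, and IL1A, IL2, IL4, IL5, IL6, IL12A, IL12B, IL13, IL17A and IL21 passed in neither tissue. IL6, the acute-phase inducer, ranged from 4.09 to 6.5 in log2 intensity in liver and from 2.94 to 7.33 in backfat. IL13 was the dimmest interleukin, at 2.11 ± 0.645 (SD, n = 20) in liver and 1.93 ± 0.456 in backfat. The exceptions were IL18, an inflammasome-activated interleukin at percentile 79.0 in liver, and IL15, a survival signal for NK and memory T cells at percentile 81.4 in backfat. Receptors were brighter than ligands at the top of their range. IL1R1, the signalling receptor of IL-1, was the brightest member in liver, at 12.23 ± 0.41 and percentile 96.6, with every array between 11.63 and 12.99. IL4R and IL13RA1, which pair to bind IL-4 and IL-13, stood at percentiles 85.8 and 83.2 in liver, while the probe sets for both ligands passed on no array. A second IL4R probe set stood at percentile 29.0 in liver. IL11RA was close to equal in the 2 tissues, at percentiles 82.8 and 82.6. The receptors IL2RA, IL6R, IL7R, IL18R1 and IL27RA passed in neither tissue.

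TNF itself passed in liver only, on 14 of 20 arrays, with a log2 intensity of 6.67 ± 0.66 (SD, n = 20), and stood at 6.05 ± 0.793 in backfat, where 3 arrays were above the 40th percentile. Its receptors TNFRSF1A and TNFRSF1B were among the brightest members in both tissues, between percentiles 85.1 and 88.5. The same order, receptors above ligands, held for the interferons. IFNG and IFNB1 passed in neither tissue, at percentiles 33.0 and 5.01 in liver, and IFNA1 lay close to the filter, at 44.2 in liver and 39.9 in backfat. IFNGR1 was the brightest member in backfat, at 10.96 ± 0.284, with every array between 10.58 and 11.57, and IFNAR1, the shared receptor of type I interferons, was at 9.58 in both tissues. Next to IFNGR1 in backfat came TGFBR1, the kinase receptor that carries TGF-beta signals to SMAD proteins, at 10.79 ± 0.328. Toll-like receptors were intermediate: TLR4, the lipopolysaccharide receptor, averaged 8.44 ± 0.331 in liver and 9.3 ± 0.303 in backfat in its brightest probe set, TLR2 averaged 9.02 ± 0.441 and 6.98 ± 0.732, and TLR8 passed in neither. TLR4 shows how much a gene's probe sets can differ, since another of its 5 probe sets averaged 3.88 in liver and 2.18 in backfat and passed on no array.

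Feed restriction changed 10 of the 67 members tested in backfat (14.9%), 9 higher and 1 lower. By comparison 25.8% of all 15499 probe sets tested passed, 15.1% higher and 10.7% lower, so the share among members was below that of the array as a whole. The test was limma's moderated test on log2 intensity, and a member passed when its p-value, adjusted by Benjamini and Hochberg together with those of every other probe set in the fit, was under 0.05. These p-values set the mean difference against the spread between arrays within groups, pooled over the groups of the tissue. In the TGF-beta group, 2 of the 3 receptor probe sets tested rose and 0 of the 7 ligand probe sets changed. Chemokine ligands gave 3 rises among 16, interleukin ligands 2 among 7, TNF ligands 1 among 3 and TNF receptors 1 among 5. None of the chemokine receptors (3 tested), interleukin receptors (6), interferon receptors (4) or Toll-like receptors (7) passed. Pieces of backfat hold many cell types, and fewer cells of a type cannot be told apart from less RNA in each cell.

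TGFBR1 gave the smallest p-value. Its log2 intensities in backfat of low RFI pigs were 10.94, 10.49, 10.41, 10.4 and 10.55 when fed ad libitum. Under restriction they were 11.34, 11.24, 11.25, 10.74 and 10.95. In high RFI pigs they were 10.43, 10.4, 10.8, 10.4 and 10.47 ad libitum, and 11.07, 10.87, 11.21, 10.95 and 10.87 restricted. Within the high RFI line the diets did not overlap, and within the low RFI line they overlapped only through ad libitum array 1 and restricted array 4. The difference was 0.52 (log2, SE 0.0939), or 1.43-fold, with an adjusted p of 0.000467 by limma. A second, dimmer TGFBR1 probe set stood 0.39 higher and missed the threshold (adjusted p = 0.0795). TGFBR3, the betaglycan co-receptor that presents TGF-beta to the signalling receptors, ranged from 7.16 to 8.86 ad libitum (median 7.61) and from 7.45 to 9.15 restricted (median 8.66). Its values overlapped between diets, and the difference was 0.74 (SE 0.206, adjusted p = 0.0115).

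The largest difference in size was that of TNFSF10, the death ligand TRAIL. In low RFI backfat its log2 intensities were 6.71, 8.38, 6.98, 6.49 and 6.87 ad libitum and 7.71, 8.35, 7.85, 8.35 and 7.68 restricted. In high RFI backfat they were 7.4, 7.43, 7.59, 7.0 and 6.11 ad libitum and 8.73, 8.92, 8.2, 7.66 and 7.99 restricted. Low RFI ad libitum array 2 alone lay among the restricted values. The mean difference was 1.05 (SE 0.234, adjusted p = 0.00271), or 2.07-fold. TNFRSF1B, the TNF receptor found mainly on leucocytes and endothelium, ranged from 9.27 to 10.41 (median 9.92) ad libitum and from 9.73 to 10.76 (median 10.44) restricted. It was 0.46 higher (SE 0.142, adjusted p = 0.0212), but with arrays 1 and 2 of each group alone the estimate turned to -0.06.

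Among chemokines, CCL14, a constitutively made chemokine that binds CCR1, had log2 intensities from 8.9 to 10.02 (median 9.31) ad libitum and from 9.52 to 10.71 (median 10.06) restricted. The difference was 0.68 (SE 0.158, adjusted p = 0.00374). CXCL12 ranged from 9.23 to 9.72 (median 9.36) and from 9.51 to 10.48 (median 9.79), a difference of 0.42 (SE 0.111, adjusted p = 0.00866). The lowest restricted CXCL12 values fell inside the ad libitum range, and the brighter CXCL12 probe set stood 0.37 higher without passing (adjusted p = 0.0704). CCL24, an eosinophil attractant made by macrophages, ranged from 8.35 to 10.26 (median 9.43) ad libitum and from 9.2 to 11.01 (median 10.00) restricted. Its difference of 0.72 (SE 0.248) had the largest adjusted p of the 10 by limma, 0.0361. It missed the threshold when any of 10 single arrays was left out (adjusted p of 0.054 to 0.0738). These were ad libitum arrays 1, 2 and 5 and restricted arrays 1 and 5 of the high RFI line, and ad libitum arrays 3, 4 and 5 and restricted arrays 1 and 5 of the low RFI line. CCL2, the main monocyte attractant, was 0.45 lower under restriction, with an adjusted p of 0.0857.

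Of the interleukins, IL34, an alternative ligand of the macrophage receptor CSF1R, ranged from 7.93 to 8.5 (median 8.44) ad libitum and from 8.22 to 9.01 (median 8.71) restricted, a difference of 0.38 (SE 0.108, adjusted p = 0.0124). IL17B, a member of the IL-17 family made by non-lymphoid cells, ranged from 5.66 to 7.56 (median 6.82) and from 6.31 to 8.22 (median 7.43), a difference of 0.62 (SE 0.187, adjusted p = 0.0183), which missed the threshold after quantile normalization (0.50, adjusted p = 0.0573). Its diets overlapped widely in the high RFI line and met only at 1 array each in the low RFI line, where restricted values began at 7.5 and ad libitum values ended at 7.56. A second IL17B probe set differed by -0.02 (adjusted p = 0.953), and the third did not pass the filter, so the rise rests on 1 of 3 probe sets. IL15 stood 0.37 higher and missed the threshold (adjusted p = 0.0712). The 1 member that fell was TNFAIP8, an inhibitor of apoptosis induced by TNF. It ranged from 9.04 to 9.83 (median 9.36) ad libitum and from 8.59 to 9.5 (median 8.98) restricted. It fell by 0.41 on the log2 scale (SE 0.128, adjusted p = 0.022), and its second, dimmer probe set stood at -0.43 with an adjusted p of 0.274.

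**Figure D2:**
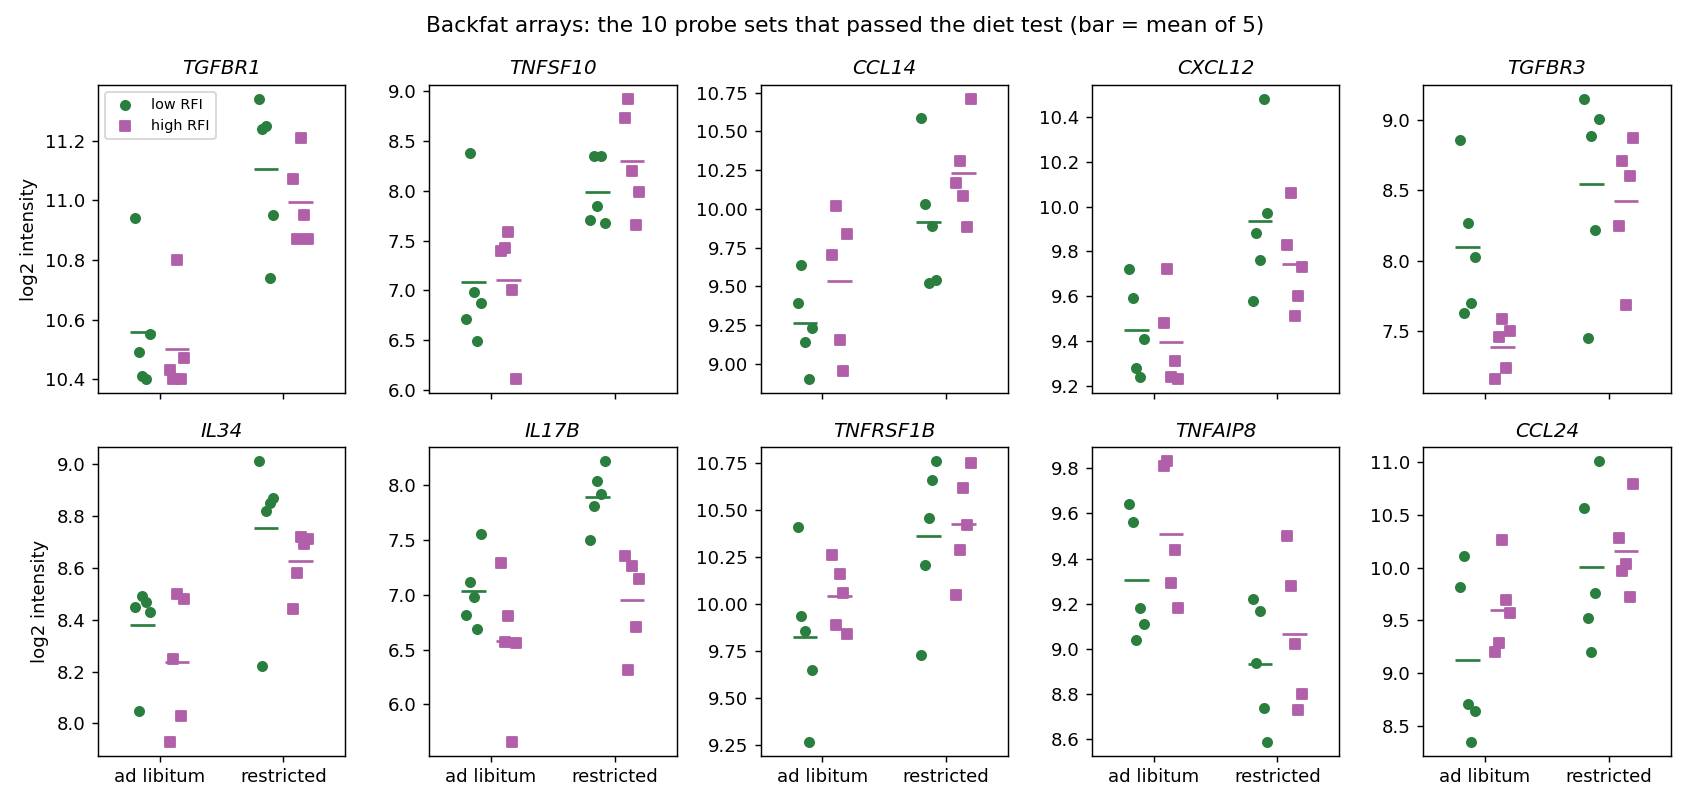
Log2 intensity in backfat of the 10 member probe sets that passed the diet test, for low RFI (circles) and high RFI (squares) pigs fed ad libitum or restricted; each point is 1 array and each bar the mean of 5. TNFAIP8 is lower and the other 9 are higher under restriction, and the diets overlap in every panel when the lines are pooled, as with TNFSF10, where 1 ad libitum array lies at 8.38.

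No member separated the 10 ad libitum from the 10 restricted backfat arrays without overlap (0 of 67, against 1.66% of all probe sets tested). With arrays 3 to 5 of each group alone 11 members passed by limma, all 10 among them. With arrays 1 and 2 alone 0 passed, where all probe sets gave 160 higher and 309 lower. Most differences were then of like size without passing: TGFBR1 0.57, TNFSF10 0.95, TGFBR3 0.61, CCL14 0.59, IL34 0.39 and TNFAIP8 -0.48. Those of CXCL12, IL17B and CCL24 were smaller, at 0.21, 0.29 and 0.48, and that of TNFRSF1B was -0.06. The GAPDH 3′ to 5′ log2 ratio in backfat moved with diet, at 1.19 ± 0.365 (SD, n = 10) ad libitum and 1.88 ± 0.521 restricted. With the actin and GAPDH ratios as covariates 8 members passed, 6 of them among the 10: CCL24 was lost at a difference of 0.80 (adjusted p = 0.125), IL17B at 0.40 (0.284), TNFAIP8 at -0.30 (0.171) and TNFRSF1B at 0.24 (0.365). The summed hepatocyte signal given above was also higher in restricted backfat, where 7 of the 11 hepatocyte genes on the array did not pass the filter. The covariate fitted was not this sum but the mean log2 intensity of the 11 genes. With it 8 members passed, and CCL24 was lost at 0.59 (adjusted p = 0.106), TNFAIP8 at -0.30 (0.0828) and TNFRSF1B at 0.40 (0.0618). Without low RFI restricted array 5 only CCL24 was lost. Of the 10 members, TNFSF10 and CXCL12 were brighter in liver than in backfat, TNFRSF1B did not differ by the test, and the other 7 were brighter in backfat. With the muscle marker mean as a covariate all 10 were called. The share of all probe sets is not given for numbers 3 to 5 or for the covariate fits. Those counts are therefore not read as particular to the members.

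Partner genes, taken from lists chosen with earlier results of these data known, moved in part. Their counts are to be read against the 15.1% of all probe sets that rose and the 10.7% that fell. Of 20 tested genes of Toll-like receptor and cytokine signalling 4 rose in backfat and 0 fell. NFKBIA, the inhibitor that NF-kB itself induces, was 0.74 higher, STAT6, which transmits IL-4 and IL-13 signals, was 0.64 higher, LY96, the co-receptor of TLR4, was 0.29 higher, and the kinase TYK2 was 0.29 higher. Of 13 NF-kB and inflammatory target genes 4 rose, ICAM1, VCAM1, SOD2 and NFKBIA, by 0.40 to 0.74. Of 20 interferon-induced genes 0 rose and GBP1 fell by 0.58. Of 11 genes of TGF-beta and BMP signalling 4 rose: BMP4 by 0.49, its receptor BMPR1A by 0.32, the activin-binding FST by 0.43 and THBS1, which activates latent TGF-beta, by 0.62. Among cell type markers, 0 of 5 general leucocyte genes and 0 of 10 muscle genes passed. Of 9 macrophage genes CD5L alone passed, 1.28 higher; this gene was also 6.50 higher in liver than in backfat. Of 5 T cell genes CD247 fell by 0.51, while the median of the 5 was 0.19, and of 2 NK cell genes KLRK1 was 0.57 higher. The endothelial TEK was 0.58 higher (1 of 5) and the hepatocyte APOA1, which weighs heavily in the summed hepatocyte signal, 0.82 higher (1 of 4). The median difference of the 4 hepatocyte genes tested was 0.995, larger than that of APOA1. The adipocyte LPL fell by 0.40 (1 of 5), and of 2 red cell genes HBB was 0.36 higher and ALAS2 fell by 0.88. The part of these cell types in the member results was not tested, beyond the hepatocyte and muscle covariates given above. The summed macrophage signal overlapped between diets, at 11.4 to 12.72 ad libitum and 11.28 to 13.31 restricted.

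In liver, restriction changed 0 of the 69 members tested, where 0.919% of 15677 probe sets passed (0.376% higher, 0.542% lower). The arrays of 1 number deviated together across diets in liver, and with the number as a block 155 probe sets were higher and 173 lower, again with 0 members. By limma 3 members had an unadjusted p under 0.05 (4.35%, against 12.4% of all probe sets). They were named after their values were seen. CCL14 ranged from 8.03 to 9.52 (median 8.84) ad libitum and from 8.55 to 9.8 (median 9.33) restricted, a difference of 0.53 (SE 0.173, adjusted p = 0.164). CCL2 ranged from 8.23 to 9.24 (median 8.79) and from 7.45 to 9.03 (median 8.37), a difference of -0.45 (SE 0.175, adjusted p = 0.261). TNFAIP8L2, a brake on immune cell activation, differed by -0.23 (adjusted p = 0.362) in its brighter probe set. Both chemokines leaned the way they did in backfat, without passing in liver, and CCL2 passed in neither tissue. The partner lists gave 0 calls in liver.

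The diet difference itself was set against tissue for the 56 members measured in both. TGFBR1 was the only one to pass (1.79%, against 10.9% of 14002 probe sets, 4.53% higher and 6.36% lower). In liver its log2 intensities ran from 8.21 to 9.38 (median 8.48) ad libitum and from 8.15 to 9.02 (median 8.47) restricted, a difference of -0.07, whereas in backfat it was 0.52 higher. The 2 diet differences were 0.59 apart (SE 0.167, adjusted p = 0.0163 by limma). With control ratios as covariates they were 0.46 apart and the call was lost (adjusted p = 0.0932), and it was also lost with numbers 1 and 2 alone (0.57 apart, adjusted p = 0.203) and numbers 3 to 5 alone (0.60 apart, adjusted p = 0.152). TNFSF10 was 0.87 apart without passing, and it passed, with CXCL12, when the set of numbers was a block. The replicate number as a random block gave 4 calls: both CXCL12 probe sets, TNFSF10 and TGFBR1. For these block fits the share of all probe sets is not given.

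**Figure D3:**
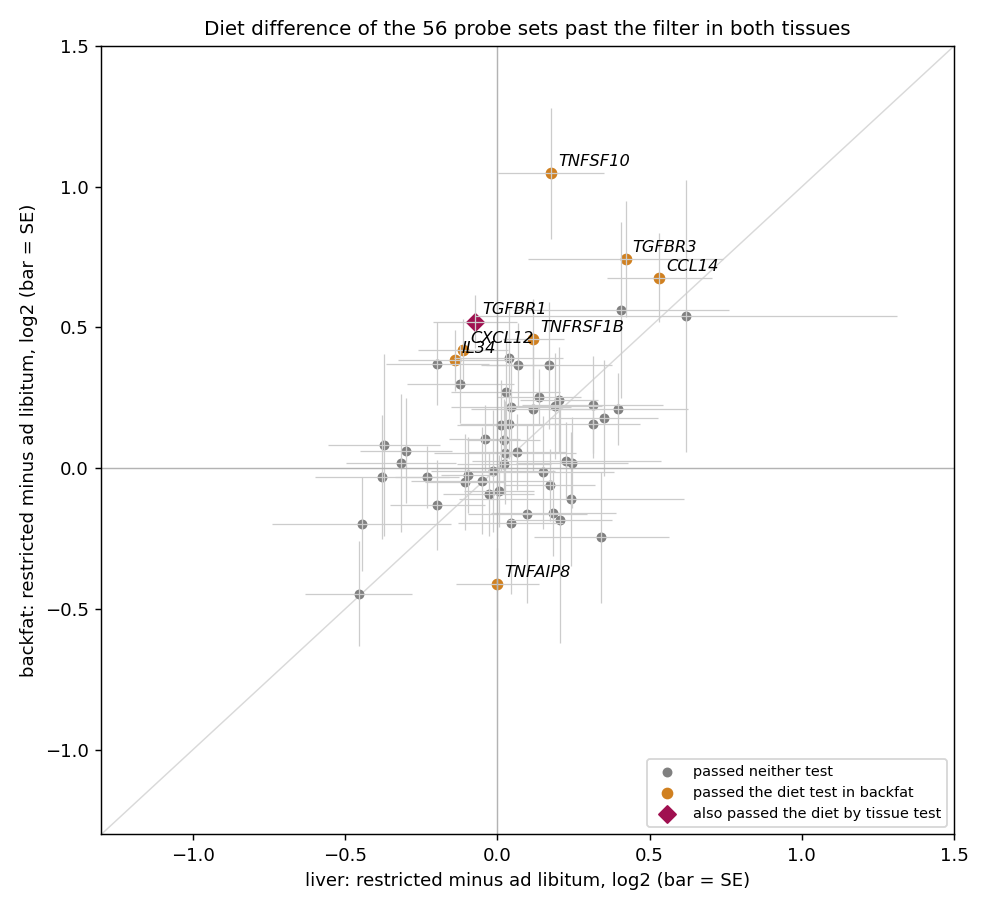
Restricted minus ad libitum difference (log2, points with SE bars) in liver and backfat for the 56 member probe sets past the filter in both tissues, with the diagonal marking equal differences. TNFSF10 is the highest point in backfat at 1.05, and TGFBR1 (diamond) stands at 0.52 in backfat and -0.07 in liver.

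The RFI line changed 0 of 69 members in liver, where 0.0447% of all probe sets passed (0.0128% higher and 0.0319% lower in low RFI). It changed 0 of 67 in backfat by limma, where 0.0194% passed (0.00645% higher, 0.0129% lower). The members of smallest p are described, and were chosen after their values were seen. In liver 2 members (2.9%) had an unadjusted p under 0.05, against 6.53% of all probe sets, and both are chemokines made by T and NK cells. CCL4 was 9.16, 8.57, 8.65, 9.29 and 9.21 in low RFI ad libitum arrays and 8.54, 9.54, 8.87, 9.3 and 8.93 in low RFI restricted ones. In high RFI arrays it was 9.63, 9.64, 9.53, 9.75 and 9.86 ad libitum and 9.2, 9.57, 9.16, 9.71 and 9.38 restricted. The lines did not overlap when fed ad libitum and overlapped under restriction. The low minus high difference was -0.54 (SE 0.129, adjusted p = 0.214), and the adjusted p ran from 0.073 to 0.672 over the alternatives. CCL5 differed by -0.34 (SE 0.129, adjusted p = 0.652). CCL4 leaned the same way in backfat, at -0.45 (adjusted p = 0.483).

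In backfat 8 of 67 members had an unadjusted p under 0.05 (11.9%, against 7.77% of all probe sets), 3 of them probe sets of TLR4. The brightest TLR4 probe set was 9.84, 9.21, 9.68, 9.33 and 9.45 in low RFI ad libitum pigs and 9.48, 9.64, 9.64, 9.5 and 9.34 in low RFI restricted pigs. It was 8.87, 8.87, 9.42, 8.89 and 9.33 in high RFI ad libitum pigs and 9.17, 9.18, 8.78, 8.95 and 9.36 in high RFI restricted pigs. The low RFI values lay above most high RFI ones, with overlap between 9.21 and 9.42. Low RFI pigs were 0.43 higher (SE 0.105, adjusted p = 0.211), and the other TLR4 probe sets past the filter were 0.57, 0.35 and 0.32 higher, with adjusted p-values of 0.234, 0.455 and 0.877. In liver TLR4 ranged from 8.17 to 9.02 in low RFI and from 7.78 to 9.17 in high RFI pigs, so the values of the former lay inside those of the latter. IL17B was 0.70 higher in low RFI backfat (SE 0.187, adjusted p = 0.234) and its second probe set 0.50 higher (adjusted p = 0.48). The summed muscle marker signal spanned 8.56 to 16.62 in low RFI and 8.88 to 14.92 in high RFI backfat. With the mean log2 intensity of the muscle markers as a covariate 0 members passed for line, as without it.

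**Figure D4:**
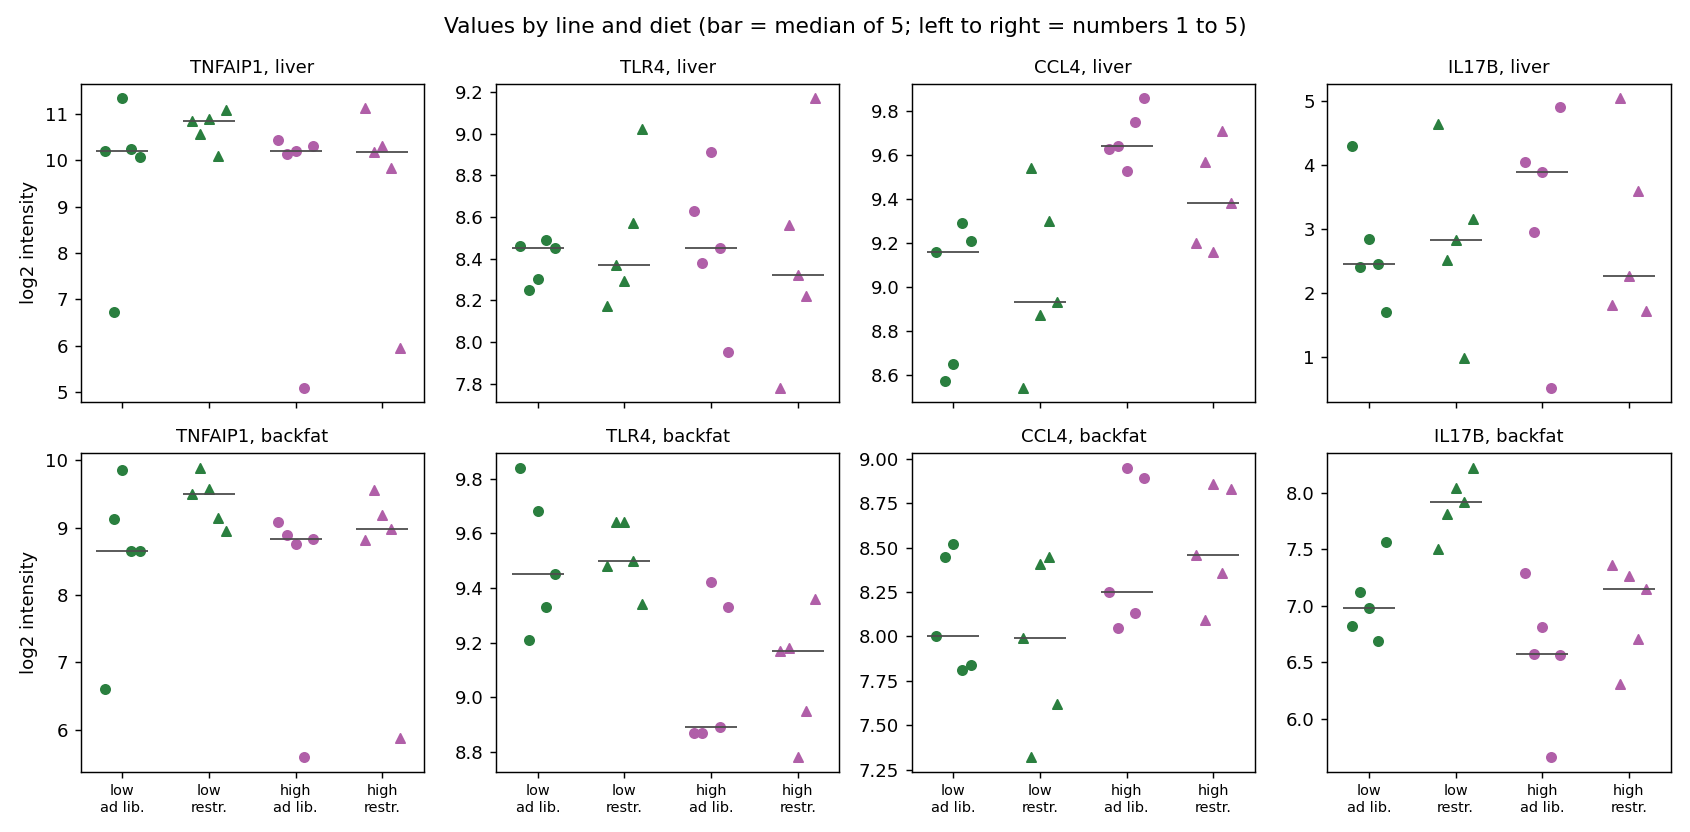
Log2 intensity of TNFAIP1, TLR4 (brightest probe set), CCL4 and IL17B in liver (top) and backfat (bottom) by line and diet; each point is 1 array, placed left to right by its number from 1 to 5, and bars are medians of 5. TNFAIP1 shows 3 arrays far below the others in each tissue, between 5.09 and 6.72 in liver, and CCL4 in liver is higher in every high RFI than low RFI array fed ad libitum.

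Whether the diet difference depended on line was tested in each tissue, and 0 members passed in either (background 0%). By limma 2 of 69 had an unadjusted p under 0.05 in liver (2.9%, against 3.35% of all probe sets) and 0 of 67 in backfat (against 1.57%). CCL14 in liver was the smallest: its diet difference in low RFI minus that in high RFI pigs was -0.80 (SE 0.346, adjusted p = 0.999). High RFI values were 8.95, 8.03, 8.66, 8.04 and 8.79 ad libitum and 9.44, 9.37, 8.98, 9.52 and 9.8 restricted, without overlap, while low RFI values were 9.52, 9.44, 8.13, 8.93 and 8.89 ad libitum and 9.32, 9.33, 9.14, 9.24 and 8.55 restricted.

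Tissue separated the members far more than diet or line. Of the 56 members past the filter in both tissues 42 differed between liver and backfat (75%), 21 higher in liver and 21 lower, against 78.9% of the 14002 such probe sets (27.5% higher, 51.4% lower). The fit also held 24 members that passed in 1 tissue only, where the filter itself favours a difference, and with them 64 of 80 members differed, 32 in each direction, against 80.4% of all 17174 probe sets (29.9% higher, 50.5% lower). Over all those tested, the median of all probe sets lay at -0.25 and that of the members at 0.03. Quantile normalization moved the former to -0.08, and 39 members were then higher and 28 lower. The share of all probe sets in that fit is not given here. The split is therefore not read as a tilt of the members toward liver. Of the 56 members, 12 had no overlap between the tissues over the 40 arrays (21.4%, against 20.8% of such probe sets), 7 higher in liver and 5 lower, and of the 80 it was 20 (background 23.1%). Among the 56, chemokine ligands were split 8 higher and 4 lower of 14, and interleukin receptors 4 higher and 1 lower of 6. Toll-like receptors were split 3 and 3 of 7, and both TGF-beta receptor probe sets were lower in liver. All 4 TGF-beta ligand probe sets that passed in backfat alone belonged to TGFB2.

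Members higher in liver were led by IL1R1 and CXCL16. IL1R1 ran from 11.63 to 12.99 in liver and from 8.33 to 9.97 in backfat, a difference of 3.0 (log2, SE 0.115, adjusted p = 5.33e-24). CXCL16 ran from 10.71 to 11.88 and from 7.94 to 8.89, a difference of 3.0 (log2, SE 0.0836, adjusted p = 1.81e-28). Neither overlapped. TNFSF10 was 2.61 higher in liver, IL18 2.60 and TLR2 2.03, each with no overlap. Where 1 tissue did not pass the filter, the fold is a lower bound set against the 40th percentile of the dimmer tissue's arrays. CCL3L1, an inflammatory CC chemokine, averaged 7.79 in liver and 5.04 in backfat and was at least 2.07-fold higher in liver. IL7, the lymphocyte survival factor, averaged 7.56 and 4.91 and was at least 1.81-fold higher. For CCL28 and CXCR6 no bound could be given, because their liver means of 6.38 and 6.41 were themselves under that level.

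Members higher in backfat included CXCL2, a neutrophil attractant. It ran from 9.63 to 11.59 in backfat and from 3.08 to 6.19 in liver, where it passed the 40th percentile on no array. It was at least 15.8-fold higher in backfat, the tissue through which it passed the filter. CCL24 ran from 8.35 to 11.01 against 5.13 to 6.8, at least 9.5-fold higher. TGFB2 ran from 7.79 to 9.44 against 0.8 to 5.21 in its brightest probe set, at least 4.88-fold higher, and all 4 TGFB2 probe sets were lower in liver, with bounds of 3.15 and 1.14 for 2 others and none for the dimmest. IL17B was at least 1.58-fold higher in backfat. TGFBR1 was 2.25 higher in backfat (SE 0.0833), IL15 1.99 and IFNGR1 1.73, all without overlap. TLR4 was 0.86 higher in backfat while TLR1 was 1.28 and TLR2 2.03 higher in liver. TNFRSF1A and IFNAR1 differed by -0.04 (SE 0.0959, adjusted p = 0.711) and 0.00 (SE 0.108, adjusted p = 0.985), the smallest differences among the bright receptors. General leucocyte markers were also brighter in liver, with summed log2 signals of 11.1 to 12.12 there and 9.89 to 10.84 in backfat, and their part in these differences was not tested.

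**Figure D5:**
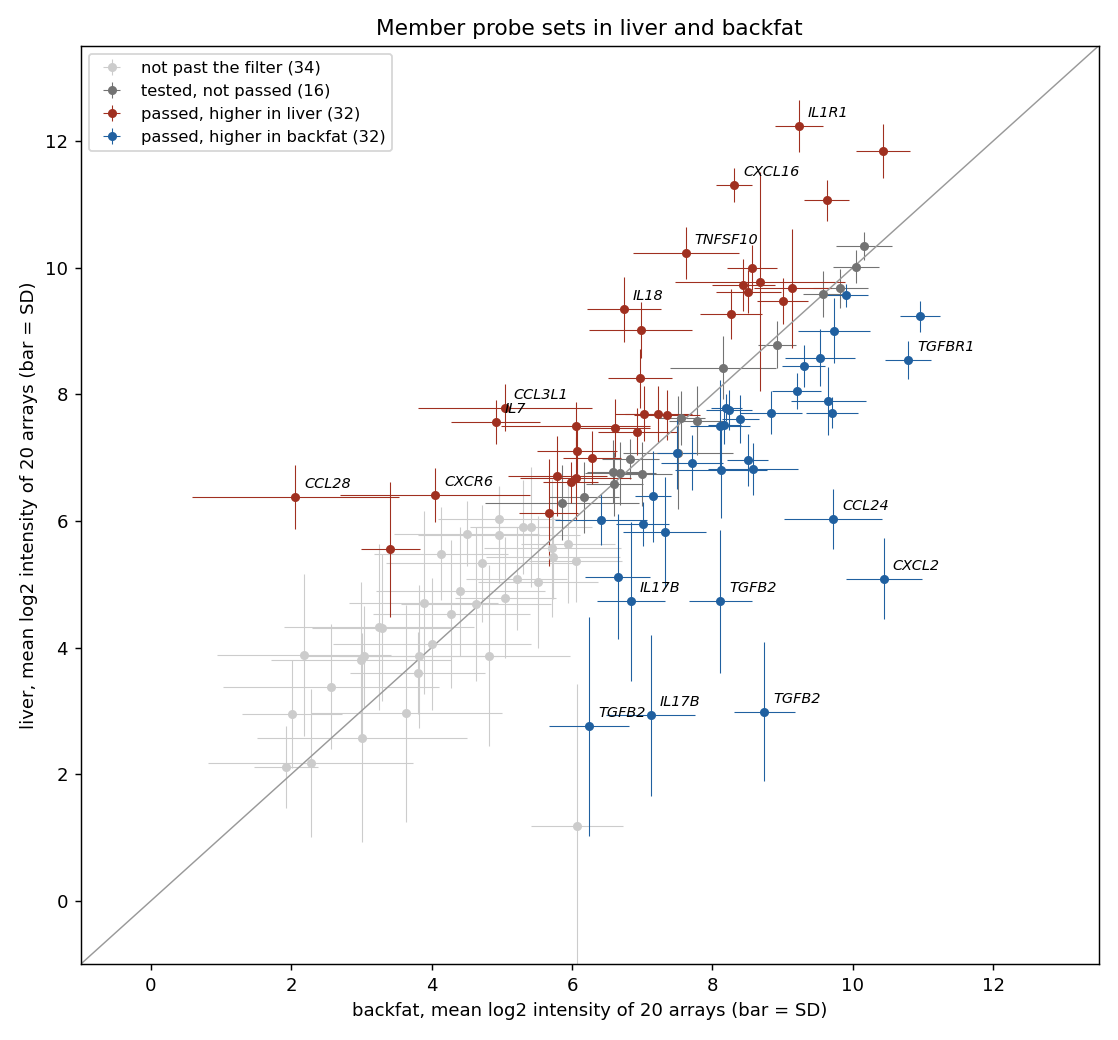
Mean log2 intensity of the 114 member probe sets in backfat and in liver (20 arrays each, bars are SD), coloured by the test between tissues; the diagonal marks equal brightness and the 16 members with the largest passed differences are named. Among members past the filter in both tissues, CXCL16 and IL1R1 lie farthest toward liver and TGFBR1 farthest toward backfat, distances of members past it in 1 tissue only (such as CXCL2, TGFB2 and CCL28) have no measured size, and the 34 members past the filter in neither tissue fill the lower left.

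The number carried by an array divided the probe sets more than line did, over the whole array as well as among members. Between numbers 1 and 2 and numbers 3 to 5, 16 of 69 members differed in liver (background 16.2%) and 12 of 67 in backfat (background 18.5%). These counts are not read as particular to the members. IL11RA was higher in numbers 3 to 5 by 0.56 in liver and 0.54 in backfat, TNFRSF1A by 0.38 and 0.50, and TGFB1 by 0.52 and 0.68, whereas IL1B stood 0.81 and 0.39 lower. The second TGFB1 probe set did not pass, at -0.12 in liver and 0.33 in backfat. The brighter CXCL12 probe set stood 0.45 lower in both tissues, and the one called for diet did not pass, at 0.05 in liver and -0.17 in backfat. Each set holds every line and diet of a tissue. Of the 10 backfat diet members, CCL14 stood 0.41 lower and TNFAIP8 0.45 lower in numbers 3 to 5, and both kept their diet call with the set as a block.

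TNFAIP1, an adaptor of a ubiquitin ligase first found as a TNF-induced transcript, had the highest SD among members above the 50th percentile in either tissue, 1.73 in liver and 1.21 in backfat. Its log2 intensity in liver was between 9.84 and 11.34 on 17 arrays and 6.72, 5.09 and 5.95 on the other 3, which were low RFI ad libitum array 2, high RFI ad libitum array 4 and high RFI restricted array 5. In backfat it was between 8.65 and 9.89 on 17 arrays and 6.61, 5.59 and 5.87 on low RFI ad libitum array 1, high RFI ad libitum array 4 and high RFI restricted array 5. The low arrays carried the same number in both tissues in 2 of the 3 groups, and the labels do not tell whether these are the same pigs. It was singled out after its values were seen.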

How the data were processed

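Total RNA from each tissue sample was hybridised to a porcine Affymetrix array, 1 array per sample. The authors deposited a table of linear intensity per probe set for 40 arrays, and the submitters' processing notes name affy and MAS5, with no version or role given in the sources used here. Genes were named from the platform annotation, in which 10069 probe sets have 1 symbol, 198 have several and 13732 have none. All 114 member symbols matched RefSeq (Sscrofa11.1) by Entrez ID.

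Deposited intensity values were taken to log2 without further scaling and fitted with limma 3.58.1 (lmFit, eBayes with trend) on group means within a tissue, or over all 40 arrays for tissue comparisons, after the filter given above (either tissue for liver against backfat, both for diet by tissue). Benjamini-Hochberg adjustment ran over all probe sets tested. On simulated data, 90% of probe sets changed by 1 and 36% of those changed by 0.5 (log2) were recovered for diet in backfat. The simulation changed 100 probe sets of each size among 15499 and drew independent noise for each array. In the data 25.8% passed and same-numbered arrays deviated together, so these shares do not give the recovery of the actual test. The number of arrays limits precision.

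Named genes were every member called within a tissue, the 8 largest called in each direction between tissues, the 10 brightest per tissue and 28 fixed genes, of which 7 have no member probe set; a gene with several probe sets was named by its brightest and any that disagreed. Members outside this rule, such as those of smallest p where a comparison gave no call and dim members named in the account of levels, were chosen after their values were seen. Members and lists were chosen with earlier results of these data known. Same-numbered arrays deviated together in every pair for diet in liver (10 of 10 correlations over 0.1, lowest 0.105), in 7 of 10 for diet in backfat and in 9 of 10 for line in either tissue. Alternatives were quantile normalization, no filter or a stricter one, an offset, no trend, replicate and number-set blocks, number subsets, control ratios as covariates and leaving out each array. Marker means as covariates were added after the data were seen.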

Additional observations from a re-analysis of the deposited data

Results flagged for a closer look

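Among 164 groups of 5 arrays examined for named members, 15 held an array set apart from the other 4 by most of the group's range. The cut-off is one that about 1 in 20 groups would pass by chance if their values were independent and normal. The screen included TNFAIP1 after its values were seen, so the 15 are not read as an excess over that rate. TNFAIP1 gave 5 of them: 5.09 in liver high RFI ad libitum array 4 (others 10.13 to 10.44), 5.95 in liver high RFI restricted array 5 (others 9.84 to 11.13), 6.72 in liver low RFI ad libitum array 2 (others 10.06 to 11.34), 5.59 in backfat high RFI ad libitum array 4 (others 8.76 to 9.08) and 5.87 in backfat high RFI restricted array 5 (others 8.81 to 9.56).

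Of members called for diet in backfat, TNFSF10 stood at 8.38 in low RFI ad libitum array 2 (others 6.49 to 6.98), and TGFBR1 at 10.80 in high RFI ad libitum array 3 (others 10.40 to 10.47) and 10.94 in low RFI ad libitum array 1 (others 10.40 to 10.55). IL34 was low in low RFI backfat array 2 under both diets, at 8.05 ad libitum (others 8.43 to 8.49) and 8.22 restricted (others 8.82 to 9.01). In backfat of high RFI restricted pigs, CCR1 was 3.33 in array 3 (others 5.99 to 6.72) and CXCR4 was 7.99 in array 1 (others 8.27 to 8.33). In liver of low RFI restricted pigs, TNFSF10 was 9.52 in array 3 (others 10.40 to 10.69), CCL21 was 9.03 in array 5 (others 8.11 to 8.36) and CCL14 was 8.55 in array 5 (others 9.14 to 9.33). TGFBR1 was listed also because its diet difference was 0.59 larger in backfat than in liver by the interaction test.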

How the results depend on the processing

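Counts of members called kept within 1.5 times of the main count except as follows. With numbers 1 and 2 alone, diet in backfat gave 0 and diet by tissue 0 members. Liver against backfat gave 41 with the stricter filter, which tested 48 members in place of 80. Diet by tissue gave 3 with the stricter filter, 4 with the replicate block and 3 with the set of numbers as a block. Leaving out each array gave 9 to 12 members for diet in backfat, 61 to 65 for liver against backfat and 1 to 4 for diet by tissue, with 4 when liver low RFI restricted array 4 was left out. These counts cover members only, without the share of all probe sets in each fit. Members passing the level criterion fell from 69 to 43 in liver and from 67 to 41 in backfat when all 20 arrays had to lie above the 40th percentile, and to 39 and 40 with the 60th percentile on 5 arrays. Of the called members named, TNFRSF1B in backfat reversed, to -0.06 with numbers 1 and 2 alone. In both fits under the threshold, 256 of the recomputed values changed sign, which is not counted as a reversal. The replicate block changed no count of members by over 1.5 times other than diet by tissue, and of the 10 members called for diet in backfat it kept all 10. Between tissues TLR9 lost its call without any of 29 single arrays and TGFB1 without any of 14. Where a change followed from fewer arrays or fewer probe sets that is its construction; otherwise the cause was not tested. Members near the negative controls have no measurable fold, and the number of arrays limits precision.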

Other observations

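Several bright members had a single array well above the others of its tissue, and these were picked out after their values were seen. Each array named here is a low RFI restricted one and entered the comparisons above. CXCL9, an interferon-gamma-induced T cell attractant, reached 12.61 in liver of low RFI restricted pig array 2, while the other 19 liver arrays ended at 10.74. IL18 reached 10.81 in liver low RFI restricted array 5, the next being 10.1. TGFB3 reached 10.44 in backfat low RFI restricted array 1, the next being 9.23, and its second probe set was also highest on that array, at 7.95. Across arrays paired by line, diet and number, deviations from group means in liver and backfat correlated with a median r of 0.22 over the 56 members past the filter in both tissues, as a description, since the pairing of pigs across tissues is not labelled. The members with the highest r were TNFSF13 and IL1B at 0.78, TNFRSF1A at 0.77 and IL11RA at 0.73, all 4 of which also differed between numbers 1 and 2 and numbers 3 to 5.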
